A study of Mus musculus with 6 samples.

Results

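The genes described here encode the chains of non-muscle myosin II: the heavy chains Myh9, Myh10 and Myh14, the essential light chain Myl6, and the regulatory light chains Myl9, Myl12a and Myl12b. They were taken by symbol from the gene count table and are 7 of its 24411 genes with a count in every library column. All 7 had reads in each of the 6 libraries and passed the filter on low counts in both fits. The family was picked with earlier results of these data known, on its values in all 4 groups, so its levels and changes are given as a description with standard errors and without p-values.

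Non-muscle myosin II is the actin motor that gives non-muscle cells contractile force. A pair of heavy chains forms the motor heads and the coiled-coil tail, and each head binds an essential and a regulatory light chain. Phosphorylation of the regulatory chain, by myosin light chain kinase and other kinases, switches the motor on, and myosin phosphatase switches it off. In the oligodendrocyte lineage, myosin II activity is known to oppose process branching, and smooth muscle cells and pericytes of blood vessels use the same regulatory chains in their contractile apparatus.

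The libraries are mouse brain RNA prepared by RiboTag, in which an HA-tagged ribosomal protein (Rpl22HA) is switched on by Cre so that ribosomes of recombined cells, with the mRNA they carry, are pulled down with an antibody to HA. AnkG icKO mice (NG2CreERTM;Ank3F/F;Rpl22HA/+) lose floxed Ank3, the gene of the scaffold ankyrin-G, and control mice (NG2CreERTM;Rpl22HA/+) carry the same Cre and tag without the floxed gene. Both received tamoxifen at 100 mg/kg for 5 days from 8 weeks of age, and brains were collected 1 month later. The groups are icKO immunoprecipitates (icKO IP, 2 libraries), control immunoprecipitates (control IP, 2 libraries), icKO input (1 library) and control input (1 library). Each library pooled 3 mice, and an input is the homogenate set aside before the pulldown. The NG2 promoter drives the inducible Cre in oligodendrocyte precursors and also in pericytes and vascular smooth muscle cells, so tagged ribosomes are not limited to 1 cell type. The titles call the 2 libraries of each IP group biological replicates, and each input is a single library.

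Library totals ran from 18968806 to 23930812 counts, so that 3 counts, the limit that a count of 0 allows, corresponded to 0.125 to 0.158 CPM (counts relative to the total of a library, here unscaled). The CPM levels below are relative to TMM-scaled totals. Ank3 had 1162 and 1167 CPM in the icKO IP libraries, against 1388 and 1359 CPM in the control IP libraries, and 347 CPM in the icKO input, against 381 CPM in the control input. Its counts cover the whole gene and not the floxed exons alone. Oligodendrocyte precursor markers were higher in IP than in input for 12 of 12 genes, mature oligodendrocyte markers for 16 of 17 and pericyte markers for 12 of 12, while 12 of 12 neuronal, astrocyte and microglial markers were each lower. Of all tested genes, 34.8% were higher in IP and 35.1% lower, at an adjusted p under 0.05 by edgeR. Between the IPs, 17 of 17 mature oligodendrocyte markers were lower in icKO, beside 25.2% of all tested genes. In these bulk samples, fewer cells of a type and less RNA per cell cannot be told apart.

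The upstream windows of the heavy chain genes are shown because these 3 genes had the higher levels in icKO IP. Each window covers 250 bases before and 50 bases after the annotated start (RefSeq, GRCm38.p6), at chr15:77842126-77842425 on the minus strand for Myh9, chr11:68691665-68691964 on the plus strand for Myh10 and chr7:44670794-44671093 on the minus strand for Myh14. Capitals mark the CCAAT box, on the printed strand as CCAAT or on the other as ATTGG.
Myh9: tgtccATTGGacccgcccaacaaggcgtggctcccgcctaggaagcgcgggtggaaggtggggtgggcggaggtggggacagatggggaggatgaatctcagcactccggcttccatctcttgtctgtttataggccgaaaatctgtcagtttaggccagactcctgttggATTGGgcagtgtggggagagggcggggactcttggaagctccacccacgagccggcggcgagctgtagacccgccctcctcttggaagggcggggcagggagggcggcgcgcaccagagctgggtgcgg
Myh10: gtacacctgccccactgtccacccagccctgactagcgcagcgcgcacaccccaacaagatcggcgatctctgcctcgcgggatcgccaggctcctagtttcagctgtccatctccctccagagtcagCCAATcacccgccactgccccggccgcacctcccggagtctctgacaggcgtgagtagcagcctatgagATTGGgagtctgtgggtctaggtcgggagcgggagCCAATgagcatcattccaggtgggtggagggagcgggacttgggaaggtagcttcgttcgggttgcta
Myh14: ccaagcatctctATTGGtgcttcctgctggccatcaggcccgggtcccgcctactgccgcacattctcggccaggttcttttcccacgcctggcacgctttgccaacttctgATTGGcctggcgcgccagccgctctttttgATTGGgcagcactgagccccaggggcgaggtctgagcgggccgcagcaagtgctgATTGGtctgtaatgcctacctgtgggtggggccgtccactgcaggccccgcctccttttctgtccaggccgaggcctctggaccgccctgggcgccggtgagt
The box occurred 2 times in the Myh9 window, 3 times in the Myh10 window and 4 times in the Myh14 window. Of all 32851 windows of this length, 37.4% held it at least once. The Myl6 gene had 1 CCAAT box in the first of its windows, and the Myl9, Myl12a and Myl12b windows had none. A match of letters is a description of the sequence and not evidence of binding.

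The Myl9 window, chr2:156775214-156775513 on the plus strand, is shown because Myl9 stood apart from the other light chains in the pulldown. Capitals mark the CArG box, the motif bound by serum response factor, which controls many smooth muscle genes.
Myl9: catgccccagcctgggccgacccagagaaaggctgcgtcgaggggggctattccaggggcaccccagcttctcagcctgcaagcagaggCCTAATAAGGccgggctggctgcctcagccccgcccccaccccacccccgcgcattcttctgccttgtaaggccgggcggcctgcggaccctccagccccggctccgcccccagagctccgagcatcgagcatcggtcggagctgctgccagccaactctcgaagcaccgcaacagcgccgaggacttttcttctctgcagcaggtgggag
It held 1 CArG box, as did 1 of the Myl6 windows. The motif was present in 1.63% of all windows and in no window of Myl12a, Myl12b or a heavy chain gene. In all, 4 motifs were searched on both strands, the others being GGGCGG, found in 35.7% of windows, and TATAAA, found in 13.6%. GGGCGG occurred 6 times in the Myh9 window, 3 times each in the Myl9 and Myl12b windows and 0 times in the Myh10 window. The Myh14 window, the Myl12a window and 1 of the Myl6 windows held 1 each. TATAAA occurred 1 time in the Myh9 window and in no other window of these genes.

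The regulatory light chains are close copies of each other, which bears on how reads are divided between them. The first 120 coding bases of each are printed below from GENCODE transcripts, with capitals at the 18 positions where the 3 are not all the same.
Myl12a: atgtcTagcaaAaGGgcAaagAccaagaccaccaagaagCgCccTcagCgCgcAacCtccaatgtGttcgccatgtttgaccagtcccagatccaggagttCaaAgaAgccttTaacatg
Myl12b: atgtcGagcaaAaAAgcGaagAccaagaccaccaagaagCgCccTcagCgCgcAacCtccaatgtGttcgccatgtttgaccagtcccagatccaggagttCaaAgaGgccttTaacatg
Myl9: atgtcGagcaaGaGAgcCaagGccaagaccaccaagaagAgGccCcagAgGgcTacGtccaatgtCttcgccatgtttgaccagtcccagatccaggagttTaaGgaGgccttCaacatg
Over 519 coding bases, Myl12a and Myl12b were 96.5% identical, with 18 differing bases and an identical run of up to 105 bases. Myl9 was 85.5% identical to Myl12a and 86.3% identical to Myl12b, with no identical run longer than 35 bases in either pair. Myl12a and Myl12b also lie next to each other on chromosome 17 (mm10), at chr17:70993656-71002878 and chr17:70973133-70990890 on the minus strand, and a second Myl12b record shares exons with Myl12a. Their separate values are therefore uncertain, and their sum is given beside them. An exon of Myom1 overlaps Myl12a on the opposite strand, so part of the Myl12a count, and of the sum, is uncertain where strand was not used in counting.

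The heavy chains had higher levels in icKO IP than in control IP. Myh10, the gene of non-muscle myosin IIB (chr11:68691559-68816632, plus strand, 41 exons), had 3618 and 3555 CPM in the icKO IP libraries, against 1504 and 1485 CPM in the control IP libraries. The means were 3586 ± 44.2 CPM in icKO IP and 1495 ± 13.5 CPM in control IP (SD, n = 2 each). The fitted log2 change was 1.27 ± 0.02 (SE), or 2.41-fold. Among 11513 genes averaging at least 5 CPM, Myh10 ranked 10 from the top by this change, and 0.382% of those genes had a log2 change above 1.

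Myh9, the gene of non-muscle myosin IIA (chr15:77760587-77842175, minus strand, 41 exons), had 1456 and 1466 CPM in the icKO IP libraries, against 788 and 794 CPM in the control IP libraries. The log2 change of Myh9 was 0.89 ± 0.02 (SE). Myh14, the gene of non-muscle myosin IIC (chr7:44605803-44670843, minus strand, 40 exons), had 334 and 342 CPM in the icKO IP libraries, against 215 and 209 CPM in the control IP libraries. Its log2 change was 0.68 ± 0.03 (SE). An exon of 2310016G11Rik overlaps Myh14 on the opposite strand, so part of the Myh14 count is uncertain where strand was not used in counting.

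The light chains had lower levels in icKO IP than in control IP, a direction that turns for Myl6, Myl12a and Myl12b when libraries are scaled to mature oligodendrocyte markers, which moves the median log2 change of all genes to 0.73. Myl9, the regulatory chain abundant in smooth muscle (chr2:156775420-156781658, plus strand, 4 exons), had 31.3 and 29.8 CPM in the icKO IP libraries, against 61.6 and 62.9 CPM in the control IP libraries. The control libraries held about double the level of the icKO libraries, with a log2 change of -1.02 ± 0.07 (SE), and Myl9 ranked 42 from the bottom of the 11513 genes. Myl6, the essential chain (chr10:128490860-128494145, minus strand, 6 exons), had 99.7 and 94.2 CPM in the icKO IP libraries, against 132 and 136 CPM in the control IP libraries, a log2 change of -0.46 ± 0.04 (SE).

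Myl12a had 21.0 and 19.8 CPM in the icKO IP libraries, against 30.9 and 30.7 CPM in the control IP libraries, a log2 change of -0.59 ± 0.09 (SE). Myl12b had 45.3 and 45.6 CPM in the icKO IP libraries, against 58.8 and 60.8 CPM in the control IP libraries, a log2 change of -0.39 ± 0.06 (SE). The sum of Myl12a and Myl12b, taken after their values were seen because they may share reads, was 66.3 and 65.4 CPM in the icKO IP libraries and 89.7 and 91.5 CPM in the control IP libraries, a log2 difference of -0.46.

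With edgeR's quasi-likelihood test and an adjusted p under 0.05, 47.2% of the 15069 tested genes were called between the IPs, 22.1% higher and 25.2% lower in icKO. The 3 heavy chains were among those higher and the 4 light chains among those lower, counts in which nothing is read because the family was chosen on this contrast.

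**Figure D1:**
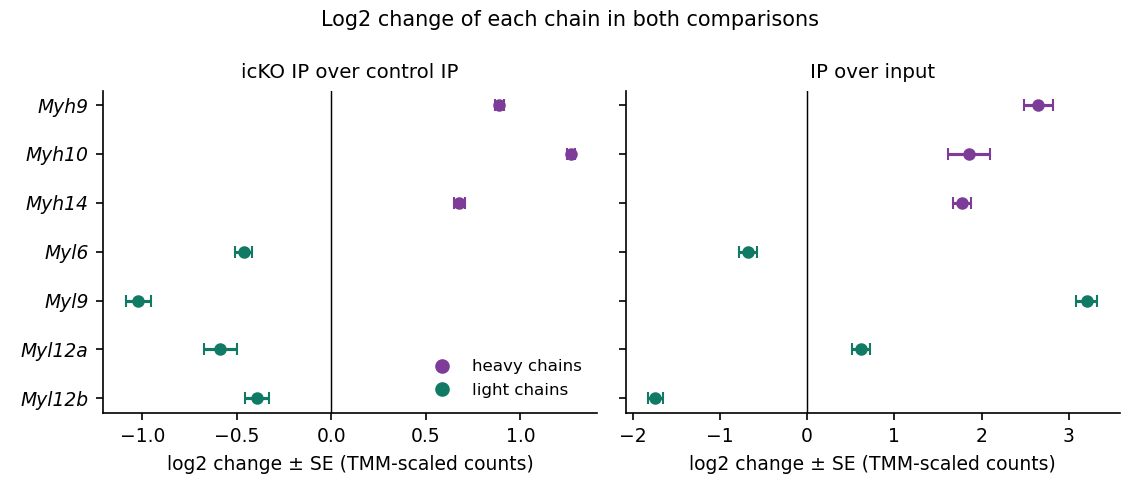
Log2 change of each myosin II chain with its standard error, icKO IP over control IP in 1 panel and IP over input in the other. The heavy chains lie between 0.68 and 1.27 in the genotype comparison and the light chains between -1.02 and -0.39.

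Set on a common length scale, the balance of the chains differed between the IPs. Per kilobase of transcript, the summed heavy chain level was 713 and 707 CPM per kb in the icKO IP libraries, against 333 and 330 for control IP. The summed light chain level was 210 and 200 CPM per kb in the icKO IP libraries, against 297 and 305 for control IP. The ratio of heavy to light chain levels per kb was 3.40 and 3.54 in icKO IP, 1.12 and 1.08 in control IP, 0.316 in icKO input and 0.307 in control input. It was thus highest in the icKO IP libraries, near equality in the control IP libraries and below equality in the inputs. The mean log2 change of the heavy chains exceeded that of the light chains by 1.56 between the IPs, and by 1.29 with an offset for transcript length.

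**Figure D2:**
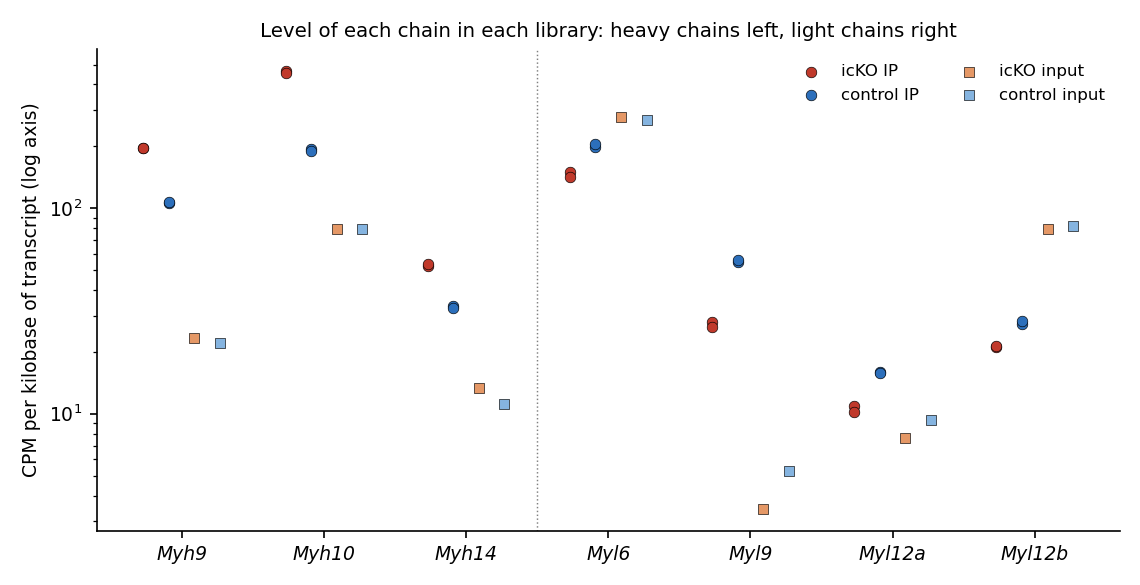
Level of each myosin II chain in CPM per kilobase of transcript in the 6 libraries, on a log axis. Myh10 has the highest heavy chain level in each library and Myl6 the highest light chain level.

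Of the heavy chain level per kb, Myh10 made up 65.2% and 64.5% in the icKO IP libraries, against 58.0% and 57.7% in the control IP libraries. It made up 68.4% in the icKO input and 70.5% in the control input. The ratio of Myh10 to Myh9 per kb was 2.37 and 2.31 in the icKO IP libraries, 1.82 and 1.79 in the control IP libraries, 3.40 in the icKO input and 3.60 in the control input. Myh9 therefore held a larger share of the heavy chains in control IP than in any other group. Among light chains, Myl9 made up 13.2% of the level per kb in each icKO IP, against 18.4% and 18.3% in the control IP libraries, and 0.938% in the icKO input, against 1.44% in the control input. Myl6 remained the main light chain, with 71.5% and 71.0% in the icKO IP libraries, 67.0% and 67.2% in the control IP libraries, 75.4% in the icKO input and 73.5% in the control input.

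**Figure D3:**
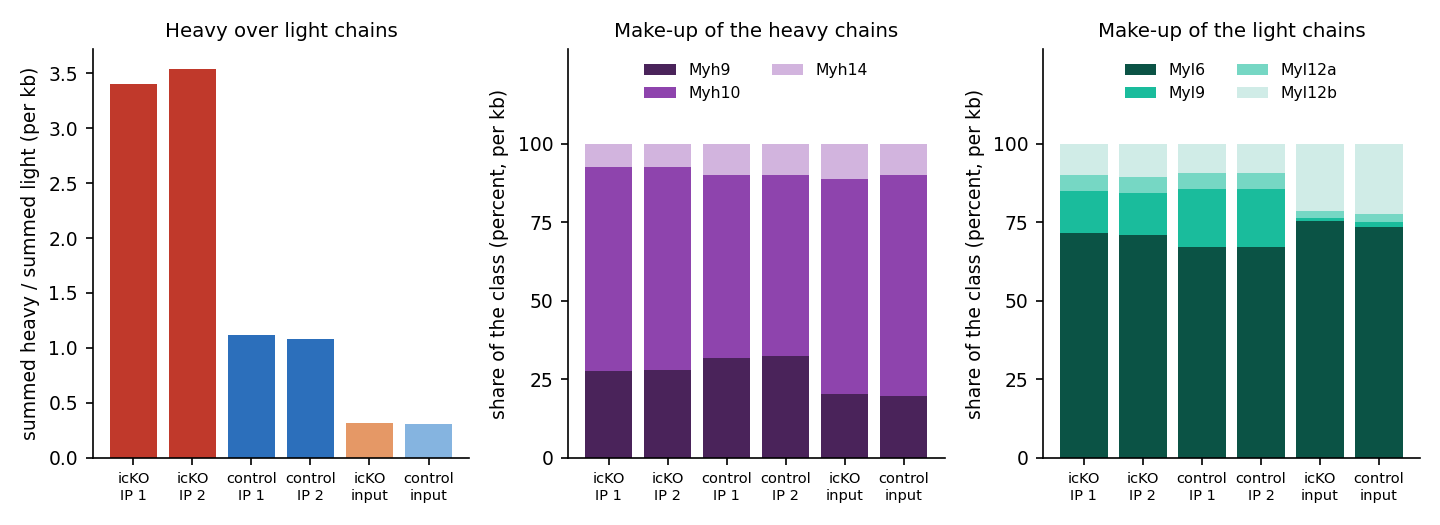
Ratio of summed heavy to summed light chain level per kilobase, and the share of each chain within its class, in the 6 libraries. The ratio is 3.40 and 3.54 in the icKO IP libraries and 1.12 and 1.08 in the control IP libraries.

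Against input, the chains divided in another way. All 3 heavy chains were higher in IP, an order that turns for Myh10 and Myh14 when libraries are scaled to mature oligodendrocyte markers. The log2 change of IP over input, with genotype as a term, was 2.65 ± 0.17 (SE) for Myh9, 1.85 ± 0.24 for Myh10 and 1.78 ± 0.10 for Myh14. Within icKO it was 3.07 for Myh9, 2.53 for Myh10 and 1.99 for Myh14, and within control 2.27, 1.28 and 1.58 in the same gene order. Each of these within-genotype values rests on a single input library. The standard errors above, from the fit with genotype as a term, also take in the difference between the within-genotype values.

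The light chains spread on both sides of 0. Myl9 had 31.3 and 29.8 CPM in the icKO IP libraries and 61.6 and 62.9 CPM in the control IP libraries, against 3.89 CPM in the icKO input and 5.95 CPM in the control input, where it had 80 and 131 counts. Its log2 change of IP over input was 3.20 ± 0.12 (SE), or 9.22-fold, the highest of the 7 genes. Myl12a was also higher in IP, at 0.62 ± 0.10 (SE), a sign that turns when libraries are scaled to mature oligodendrocyte markers. Myl6 had 184 CPM in the icKO input and 178 CPM in the control input, above every IP, and a log2 change of -0.68 ± 0.10 (SE). That change was -0.14 with an offset for transcript length. It was -0.41 without the icKO input, which leaves the change within control, and -0.93 within icKO. Myl12b had 170 CPM in the icKO input and 176 CPM in the control input, and a log2 change of -1.74 ± 0.08 (SE).

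The ratio of Myl12b to Myl12a counts was 2.16 and 2.30 in the icKO IP libraries, 1.90 and 1.98 in the control IP libraries, 11.6 in the icKO input and 9.73 in the control input. The neighbouring copies thus held quite different balances in IP and in input, and their summed level was lower in IP by 1.30 on the log2 scale. Of the 15451 genes tested between IP and input, 70% passed an adjusted p under 0.05, 34.8% higher and 35.1% lower in IP. The 3 heavy chains with Myl9 and Myl12a were among the higher genes, and Myl6 with Myl12b among the lower, from which nothing is read here either.

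Between the inputs, with 1 library each and no replicate check, the log2 ratio of icKO to control was 0.09 for Myh9, 0.01 for Myh10 and 0.26 for Myh14. The 95% exact interval, which covers counting error only, was 0.02 to 0.16 for Myh9, -0.03 to 0.04 for Myh10 and 0.16 to 0.36 for Myh14. Among light chains the ratio was 0.05 for Myl6, -0.61 for Myl9, -0.30 for Myl12a and -0.05 for Myl12b. The interval was -0.02 to 0.11 for Myl6, -1.03 to -0.20 for Myl9, -0.52 to -0.08 for Myl12a and -0.12 to 0.02 for Myl12b. Over all genes the chi-square per degree of freedom between the inputs was 5.45, more than counting error gives, so these intervals are too narrow to show a difference between genotypes. Myh10 had 620 CPM in the icKO input library and 616 CPM in the control input library, while its fitted level differed 2.41-fold between the IPs. With 1 input library each, whether the homogenates of the genotypes differed was not tested.

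Transcript length moved with these changes. Heavy chain transcripts have 6390 to 7791 bases and light chain transcripts 665 to 2143. Among 1099 tested genes of 6 to 8 kb, the median log2 change between the IPs was 0.11 and the 90th percentile 0.53, below the changes of all 3 heavy chains, which sat at percentiles 97.8 for Myh9, 99.5 for Myh10 and 94.8 for Myh14. Among 2917 genes of 1 to 2 kb the median was -0.13, with Myl9 at percentile 1.41 and Myl12a at 9.12. Myl12b sat at percentile 13.3 of genes of 2 to 3 kb, and Myl6 at 23.4 of genes of up to 1 kb. With an offset for transcript length the change of Myl6 was -0.19, and every chain, Myl6 included, kept its direction. The length classes were set after the changes were seen, and the part of length in the changes was not tested.

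**Figure D4:**
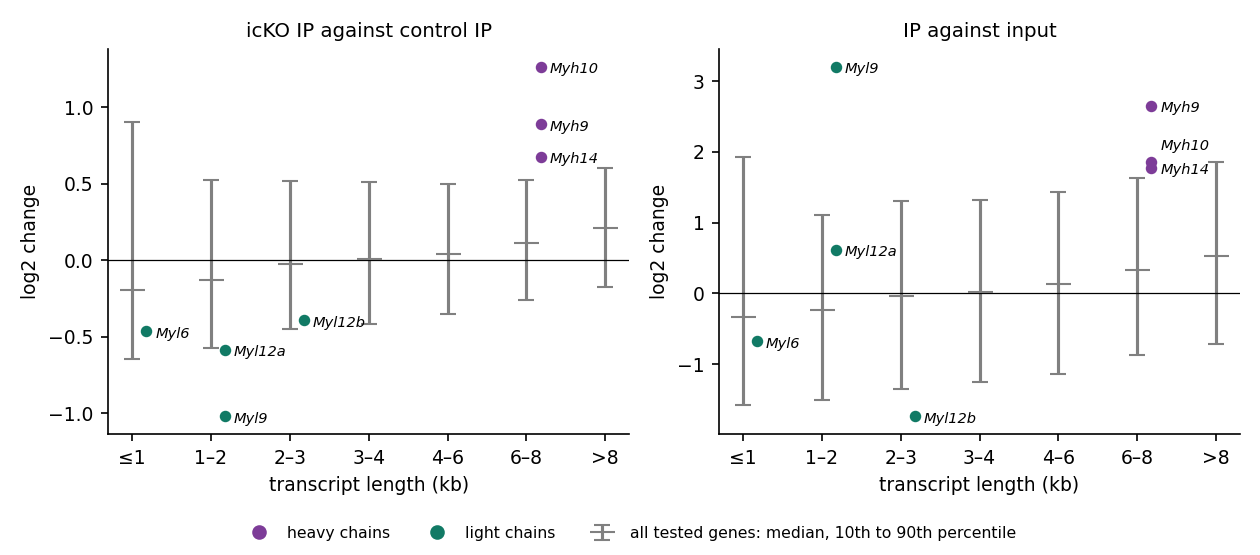
Log2 change of the myosin II chains beside that of all tested genes by transcript length, for icKO IP over control IP and for IP over input; bars give the 10th to 90th percentile and the cross line the median. Between the IPs the heavy chains lie above the bar of their length class, and Myl9 and Myl12a lie below theirs.

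Pericyte and vascular smooth muscle markers moved with Myl9, and so did mature oligodendrocyte markers and most oligodendrocyte precursor markers. Between the IPs, 25.2% of all tested genes were lower in icKO and 22.1% higher. Between IP and input, 34.8% of all tested genes were higher in IP and 35.1% lower. Of 17 mature oligodendrocyte markers, 17 were lower in icKO IP, with a median log2 change of -0.76. Against input, 16 of them were higher in IP and 1 lower. Of 12 oligodendrocyte precursor markers, 9 were lower and 1 higher in icKO IP, with a smaller median of -0.17. All 12 precursor markers were higher in IP than in input. Of 13 endothelial markers 2 were higher and 2 lower between the IPs, and 1 was higher and 9 lower in IP than in input. The summed level of 12 pericyte markers was 1061 and 1074 CPM in the icKO IP libraries, 2002 and 2026 CPM in the control IP libraries, 125 CPM in the icKO input and 128 CPM in the control input. All 12 were lower in icKO IP than in control IP, with a median log2 change of -1.01. The summed level of 14 vascular smooth muscle markers was 95.9 and 94.6 CPM in the icKO IP libraries, 156 and 164 CPM in the control IP libraries, 36.9 CPM in the icKO input and 34.9 CPM in the control input. Of the 13 tested, 10 were lower in icKO IP and none was higher, with a median of -0.90. Against input, 10 of these 13 were higher in IP and 1 lower. No marker of either list was at 0 in every IP. The part of any of these cell types in the Myl9 values was not tested.

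By the root mean square difference of centred log2 levels over the 6 libraries, the genes most like Myl9 among 10085 were Rgs5, a pericyte marker, at 0.125, and Myh11, the smooth muscle myosin heavy chain, at 0.130. Those most like Myh10 were Fbxo34, at 0.043, and Clip1, a microtubule plus-end protein, at 0.086. For Myh9 they were 5031426D15Rik, at 0.062, and Syne2, a nuclear envelope protein, at 0.074, and for Myh14 D830031N03Rik, at 0.076, and Ice2, at 0.081. Myl6 was closest to Tmem106c, at 0.023, and Eid1, at 0.028. Myl12a was closest to Cav2, a caveolin, at 0.062, and Tmem141, at 0.062. Myl12b was closest to Cycs, the gene of cytochrome c, at 0.027, and Cox7a2, a subunit of cytochrome c oxidase, at 0.033.

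Genes related to myosin II were read from 5 lists of 78 genes, none of them a member. One list holds 19 chains of muscle myosin II, and the others hold genes that act on the motor or its filament. The counts over all 5 lists take in the muscle chains, of which 25% of those tested were called between the IPs and 57.1% against input. Between the IPs, 18 of 70 tested genes rose and 26 fell in icKO, 62.9% in all beside 47.2% of all genes. The median log2 change was -0.08, against 0.00 over all genes. With scaling by library totals 15 were higher and 32 lower, and with scaling to mature oligodendrocyte markers 59 were higher and 2 lower. Against input, 37 of 72 were higher in IP and 19 lower, 77.8% in all beside 70% of all genes.

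Of 14 kinases, 5 rose (35.7%) and 5 fell (35.7%), beside 22.1% and 25.2% of all tested genes. Mylk, the gene of myosin light chain kinase, had 47.4 and 41.0 CPM in the icKO IP libraries, against 71.5 and 75.9 CPM in the control IP libraries, a log2 change of -0.73 (adjusted p = 2.57e-11 by edgeR). The call was lost under scaling to mature oligodendrocyte markers (adjusted p = 0.90). Rock2 rose by 0.21 (adjusted p = 1.25e-06), and Rock1 had a log2 change of 0.04 (adjusted p = 0.378). Dapk1 and Cit, a death-associated kinase and citron kinase, rose by 0.35 and 0.33 on the log2 scale. The other kinase genes that rose were Cdc42bpa and Cdc42bpb, and the others that fell were Dapk2, Ilk, Pak1 and Pak2. Between IP and input, 8 kinase genes were higher in IP and 5 lower. Rock2, Dapk1 and Cit were among the lower, with log2 changes of -0.31, -0.63 and -0.43.

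Of 8 tested myosin phosphatase genes, 3 rose (37.5%) and 4 fell (50%), beside 22.1% and 25.2% of all tested genes. Mprip, which targets myosin phosphatase to actin, had 5384 and 5445 CPM in the icKO IP libraries, against 2520 and 2428 CPM in the control IP libraries, a log2 change of 1.13 (adjusted p = 3.79e-30 by edgeR). Its icKO libraries held more than double the level of its control libraries. Ppp1r14a, an inhibitor of the phosphatase known from smooth muscle, had 52.3 and 61.1 CPM in the icKO IP libraries, against 113 and 116 CPM in the control IP libraries, a log2 change of -1.02 (adjusted p = 2.55e-16). Ppp1r12a, the targeting subunit, rose by 0.14 (adjusted p = 0.000663), a call lost with library totals (adjusted p = 0.165). Ppp1cb, the catalytic subunit, had a log2 change of -0.14 (adjusted p = 0.00257), which turned to 0.58 under scaling to mature oligodendrocyte markers. Ppp1r12b was the other gene that rose, and Ppp1r14b and Ppp1r14c were the others that fell. The call of Ppp1r14b, at -0.36, was lost without icKO IP replicate 1 (-0.18, adjusted p = 0.162 by edgeR) and with an offset for transcript length (-0.14, adjusted p = 0.263).

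Of 16 partners of the myosin II filament, 5 rose (31.25%) and 6 fell (37.5%), beside 22.1% and 25.2% of all tested genes. Limch1, an activator of non-muscle myosin IIA, had 2082 and 2066 CPM in the icKO IP libraries, against 974 and 971 CPM in the control IP libraries, a log2 change of 1.10 (adjusted p = 7.14e-29). Shroom3, an actin-binding protein, rose to 24.9 and 23.4 CPM in the icKO IP libraries, against 15.2 and 16.1 CPM in the control IP libraries, a log2 change of 0.62 (adjusted p = 3.59e-06). Svil, the gene of the myosin and actin binding protein supervillin, rose by 0.45. Cald1, the gene of caldesmon, had 174 and 176 CPM in the icKO IP libraries, against 282 CPM in each control IP, a log2 change of -0.69 that turned to 0.039 under scaling to mature oligodendrocyte markers. Cnn2, a calponin, fell to 9.54 and 8.12 CPM in the icKO IP libraries, against 22.4 and 18.6 CPM in the control IP libraries.

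Of 19 chains of muscle myosin II, 12 were tested. Of these, 2 rose (16.7%) and 1 fell (8.33%), beside 22.1% and 25.2% of all tested genes. The gene that fell was Myh11, with 22.0 and 22.9 CPM in the icKO IP libraries, against 37.5 and 36.7 CPM in the control IP libraries, a log2 change of -0.72 (adjusted p = 5.57e-09) that turned to 0.0047 under scaling to mature oligodendrocyte markers. Myh7, a slow muscle heavy chain, rose to 13.6 and 16.0 CPM in the icKO IP libraries, against 9.59 and 10.7 CPM in the control IP libraries. The other gene that rose, Myh15, averaged only 0.647 CPM over the IP libraries. Its log2 change was 1.41 ± 0.57 (SE), close to the threshold (adjusted p = 0.0405 by edgeR). Against input, Myh11 was higher in IP by 3.17 on the log2 scale, and Mprip and Limch1 by 3.33 and 3.21, while Myl4, Myl6b and Myh7 had log2 changes of -2.33, -1.88 and -1.68. The pericyte and vascular smooth muscle sums given above were also lower in icKO IP, as were 17 of 17 mature oligodendrocyte markers. Of 12 oligodendrocyte precursor markers, 9 were lower and 1 higher. The part of any of these cell types in the values of Myh11, Cald1, Cnn2, Mylk and Ppp1r14a was not tested.

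**Figure D5:**
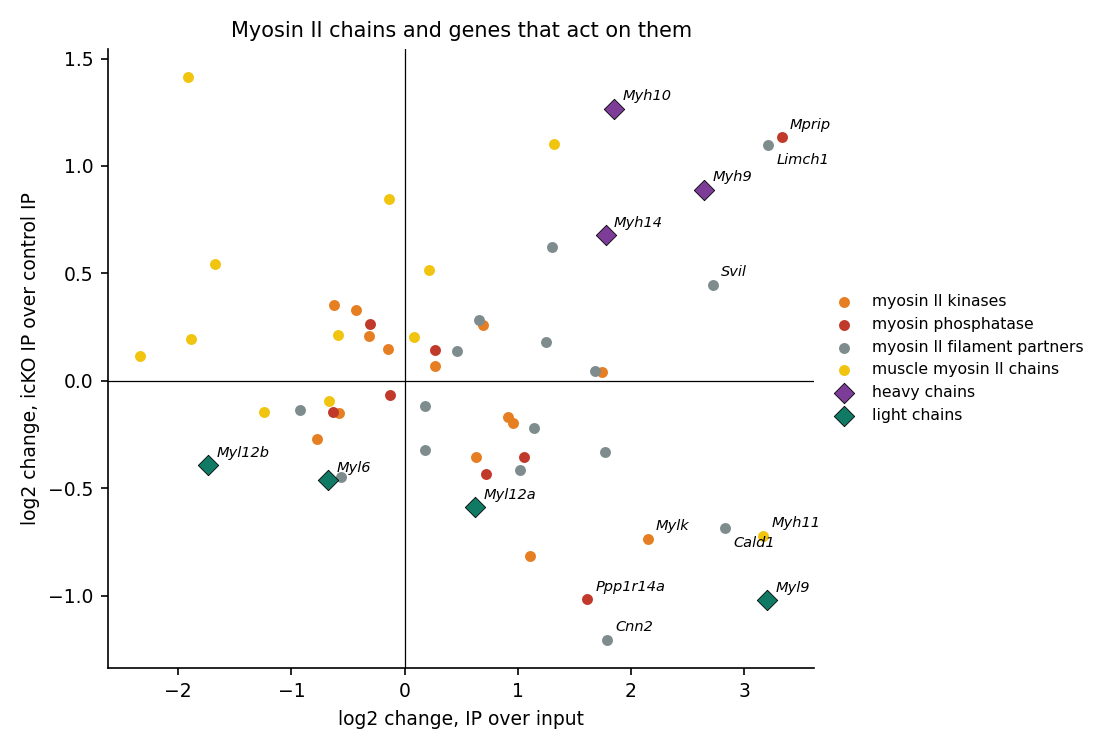
Log2 change of icKO IP over control IP against that of IP over input, for the myosin II chains (diamonds) and the genes of 4 of the 5 lists (circles). Mprip and Limch1 lie beside the heavy chains at 1.13 and 1.10, and Myh11, Cald1 and Mylk lie with Myl9 on the side of higher level in IP and lower level in icKO.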

How the data were processed

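Gene counts came from 6 mouse brain RiboTag libraries. The authors deposited whole-number read counts per gene, not normalized. Trimmomatic 0.39 and STAR 2.7.10b are named in the submitters' processing notes with genome build mm10, and the counting tool, its strand setting and the handling of duplicate reads were not given in the sources used here. Libraries were made with a stranded total RNA kit, per the labels' protocols. Of 24421 table rows, 10 without a value in an input were left out.

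Counts were scaled by TMM and fitted with edgeR 4.0.16 (R 4.3.3, filterByExpr, quasi-likelihood test, Benjamini-Hochberg adjustment over all genes tested, threshold 0.05). The genotype comparison used the 4 IP libraries, and the comparison of IP with input used 6 libraries with genotype as a term. CPM use TMM factors of all 6 libraries. Level per kb divides by the longest APPRIS principal transcript of GENCODE. Intervals and floors cover counting error only. Promoter windows and names are from RefSeq. DESeq2 1.42.0 and other scalings, filters and left-out libraries were alternatives. The code was tested on simulated data with 200 changed genes.

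The members and the gene and marker lists were chosen with earlier results of these data known. Genes to name were drawn, per list, from those with the largest changes past the threshold in each comparison and averaging at least 5 CPM, a fixed set of central genes, and the 2 genes most like each chain, and not every such gene is given in the text. Genes named only to spell out a small count lie outside this rule. These names, the motifs, the length classes and the sum of Myl12a and Myl12b were chosen after the values were seen. P-values of the genotype comparison reflect the spread between IP libraries that the titles call biological replicates. In the fit of IP against input, the spread also takes in any difference between genotypes in the change from input to IP. The title of 1 icKO IP library reads cKO, and its genotype label was used. The members of 1 gene list are not reported separately here.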

Additional observations from a re-analysis of the deposited data

Results flagged for a closer look

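Arhgef10 differed between genotypes in the IPs, with 327 and 331 CPM in the icKO IPs, against 443 and 439 CPM in the control IPs, a log2 change of -0.42. The inputs, with 1 library each, held 73.5 CPM in icKO and 67.9 CPM in control, a log2 ratio of 0.11 and so of the opposite sign. Its 95% exact interval of 0.01 to 0.22 covers counting error only, and the inputs differed over all genes by more than that, with a chi-square per degree of freedom of 5.45, so no difference between the inputs is shown. The difference between the 2 contrasts was not tested.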

How the results depend on the processing

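The heavy minus light chain difference, in log2, was 1.56 between the IPs and 1.74 between IP and input. With an offset for transcript length it was 1.29 and 1.13, with summed CPM 1.68 and 2.76, and without the genotype term 1.82 for IP against input. Leaving out 1 library gave 1.53 to 1.59 between the IPs, and 1.16 (without icKO input) to 2.38 (without control input) for IP against input. Without 1 input the fit takes this change from the other genotype alone. The value of 1.16 is therefore the difference within control, and 2.38 that within icKO. Leave-outs called 5905 to 6242 genes between the IPs, against 7119 with all libraries, and 10106 to 11076 for IP against input, against 10811. Scaling to mature oligodendrocyte markers moved the median of all genes to 0.73 between the IPs and -2.28 for IP against input, and called 13018 genes between the IPs, 12929 higher and 89 lower; for IP against input 212 were higher and 14081 lower. Library totals gave 2409 higher and 4979 lower between the IPs. All reversals were under the marker scaling. Between the IPs it gave 0.26 for Myl6, 0.14 for Myl12a, 0.33 for Myl12b, 0.56 for Cdc42bpg, 0.53 for Pak2, 0.37 for Ilk, 0.58 for Ppp1cb, 0.37 for Ppp1r14b, 0.29 for Ppp1r14c, 0.26 for Rhoa, 0.27 for Rhoc, 0.61 for Rnd1, 0.16 for Rnd2, 0.31 for Arhgef10, 0.56 for Arhgef28, 0.039 for Cald1, 0.0047 for Myh11, 0.49 for Ank3 and 0.50 for Rpl22. For IP against input it gave -0.49 for Myh10, -0.53 for Myh14, -1.67 for Myl12a, -0.14 for Mylk, -0.55 for Rock1, -1.37 for Cdc42bpg, -1.32 for Pak2, -1.66 for Ilk, -2.03 for Ppp1r12a, -0.66 for Ppp1r14a, -1.23 for Ppp1r14b, -1.57 for Ppp1r14c, -1.78 for Rhoa, -1.82 for Rhob, -0.30 for Rhoc, -1.96 for Rnd2, -0.87 for Arhgef28, -0.99 for Shroom3, -0.53 for Cnn2 and -0.49 for Ank3. The marker scaling moves every gene by about the same amount in each comparison, because it divides by marker levels that themselves differed. The median log2 change of those markers was -0.76 between the IPs and 2.54 for IP against input. Why the marker levels differed, and the cause of the other shifts, were not tested. The replicate numbers carry no stated pairing, same-numbered libraries had deviations correlated at -0.0031, and a fit with the replicate block called 7277 genes and 45 pathway genes, with a heavy minus light difference of 1.56. With 2 libraries or 1 library a group, the spread is borrowed from all genes.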
